A study of Homo sapiens with 11 samples.

Results

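The genes described here encode the enzymes that build, lengthen and desaturate fatty acids, together with SREBF1, the transcription factor gene that drives many of them. They were chosen by symbol, and all 10 (SCD, FASN, ACACA, ACLY, ACSS2, ELOVL5, ELOVL6, FADS1, FADS2 and SREBF1) were found among the 28152 symbols of the count table. All 10 passed the filter on low counts, as did 16653 symbols in all. RNA was sequenced from xenografts labelled as BT-474, grown in the mammary fat pad of female athymic nude mice. BT-474 is a human breast cancer line, labelled as hormone receptor and HER2 positive. All animals of both groups carried a slow-release pellet of 0.72 mg β-estradiol made to last 90 days, and tumours were enrolled above 95 cubic millimetres. Vehicle animals (6 tumours) received 5% mannitol in water under the skin every 4 days, and treated animals (5 tumours) received evexomostat (SDX-7320) at 12 mpk on the same schedule. Evexomostat inhibits methionine aminopeptidase 2, an enzyme that trims the first methionine from new proteins. All tumours are labelled day 33, each library is from 1 tumour, and all carry the label of 1 cell line. Nothing in the labels says that the tumours came from separate experiments, so p-values measure the spread between these tumours. Mouse ages are not given in the sources used here.

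Fatty acid synthesis starts from cytosolic acetyl-CoA, which ACLY makes from citrate and ACSS2 from acetate. ACACA carboxylates it to malonyl-CoA, FASN assembles palmitate, ELOVL6 lengthens palmitate to stearate, and SCD desaturates both to the monounsaturated acids of membranes and stored fat. FADS2, ELOVL5 and FADS1 act in turn on the essential fatty acids to make long polyunsaturated ones. SREBF1 encodes SREBP1, which is cut from a membrane precursor when sterols are low or growth signals are strong, and which activates most of these genes. Many breast cancers make fatty acids at a high rate.

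Because SREBP1 binds promoters together with the factor NF-Y, whose recognition letters are CCAAT, the promoter sequence before 2 of the genes is shown. They are SCD, which had the largest fold change of the 10, and ACLY, which had the smallest. The sequences are the 250 bases before the start site in RefSeq's promoter table (GRCh38.p14), written 5′ to 3′ on the gene's strand with CCAAT, or its reverse complement ATTGG, in capitals. SCD lies at chr10:100346983-100347232 (plus strand) and ACLY at chr17:41919023-41919272 (minus strand). That build is not the GRCh37 named in the submitters' processing notes, so these coordinates do not apply to the counts.
SCD: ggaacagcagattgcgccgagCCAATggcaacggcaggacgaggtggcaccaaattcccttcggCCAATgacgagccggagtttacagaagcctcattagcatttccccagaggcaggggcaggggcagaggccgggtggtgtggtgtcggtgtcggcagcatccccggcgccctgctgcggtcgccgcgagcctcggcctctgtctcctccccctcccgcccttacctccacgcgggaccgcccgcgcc
ACLY: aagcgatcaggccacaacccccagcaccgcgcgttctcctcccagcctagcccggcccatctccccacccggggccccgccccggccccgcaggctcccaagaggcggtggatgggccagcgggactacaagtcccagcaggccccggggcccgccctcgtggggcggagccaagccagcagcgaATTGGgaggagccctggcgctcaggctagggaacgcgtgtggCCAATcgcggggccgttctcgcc

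Both windows hold 2 such boxes, at 229 and 186 bases before the start in SCD and at 65 and 23 bases before it in ACLY. ACLY has another window, for another start site, in which the same boxes lie 136 and 94 bases before the start. RefSeq's table held windows of 300 bases (250 before and 50 after the start) for 9 of the 10 genes. CCAAT on either strand was in a window of 6 of these 9 genes (SCD, ACACA, ACLY, ACSS2, ELOVL5 and FADS2), against 39.7% of all 27305 genes. The GC box GGGCGG was in 8 of 9 against 48.3%. The sterol regulatory element searched as TCACNCCAC was in 0 of 9 against 1.39%, and with the looser TCACNNCAC, which includes the former, it was in ACSS2 only, against 4.30% of genes. The E-box CACGTG was in ELOVL5 only, against 8.78% of genes. These are exact letter matches in short windows, and a gene with several windows counts when any of them matches. The 9 genes had 14 windows and all 27305 genes had 35116, and more windows give more chances of a match. Per window, CCAAT was in 34.6% and GGGCGG in 45.0% of all windows. A site with other letters is missed, so a window without a match may still hold a site that SREBP1 binds.

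Library totals ran from 22808033 to 39249329 counts. In these libraries the 10 genes had between 619 counts (ACACA in vehicle 001) and 26346 counts (SCD in vehicle 003), so counting error was small beside the spread between tumours. Vehicle 001 stood apart from the other vehicle libraries, where the 100 most abundant genes took 23.9% of the total against 16.2% to 17.6%. It was the lowest vehicle library for each of the 10 genes, at 0.184 (FASN) to 0.668 (ELOVL5) of the mean of the other 5 vehicle libraries, where the median tested gene was at 0.949. Evexomostat 003 was the lowest of all 11 libraries for 4 of the genes. It was at 0.449 (FADS2) to 0.811 (ELOVL6) of the other evexomostat libraries in 8 genes, and at 1.10 in ACSS2 and 1.56 in SREBF1, with a median tested gene at 1.01. There 1.86% of all tested genes had a lower ratio than FADS2 and 22.5% a lower ratio than ELOVL6. Results are therefore given with and without vehicle 001, and for the 10 genes together also without both libraries. Vehicle 001 was singled out partly by its low values in these 10 genes, so leaving it out raises their vehicle means. The results without it describe its weight and are not separate support for a fall.

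The labels' line and the host tissue were checked by marker genes in the deposited RPM, which scale each library by its total count. ERBB2, the HER2 gene, was at 23.0 to 65.3 RPM in the vehicle libraries and averaged 53.7 RPM over all libraries. Whether that level fits the HER2 label was not tested. The defining luminal genes ESR1 and PGR averaged 0.285 and 0.0655 RPM and EPCAM 3.03. These defining luminal markers of the labelled line were thus nearly absent in both groups. Of the 13 genes read for the line, 5 averaged under 1 RPM (GRB7, ESR1, PGR, CDH1 and KRT19). GRB7 averaged 0.303 RPM, FOXA1 1.05 RPM and GATA3 6.50 RPM. KRT8 averaged 331.6 RPM, KRT18 149 RPM, CD44 832.3 RPM and the mesenchymal gene VIM 1187 RPM. The libraries of both groups shared this pattern, and its part in the results was not tested. Adipocyte RNA from the fat pad would bring transcripts of lipid synthesis. The host is mouse, and how its reads were handled is not given. Low counts of a human symbol thus do not show that host cells were absent. Of 14 adipocyte genes, ADIPOQ and RETN had 0 counts in all 11 libraries, FABP4 had 1 to 48 counts and 10 averaged under 1 RPM. Their summed level was 62.9 to 147.2 RPM under vehicle and 99.1 to 172.6 under evexomostat, most of it PNPLA2, a lipase gene of many cell types. Of 8 mammary epithelial genes, 6 averaged under 1 RPM, among them CSN2, CSN3 and LALBA with at most 1 count a library, and the sum was 33.2 to 89.8 RPM under vehicle and 30.3 to 48.4 under evexomostat. The stroma, vessel and blood list of 12 genes summed to 433.0 to 2106 and 526.6 to 1109 RPM. Skeletal muscle genes, 12 in all, summed to 4.48 to 21.7 RPM under vehicle. The sums were 548.8, 62.1 and 31.1 RPM in evexomostat 005, 004 and 003, and 11.8 and 6.36 RPM in evexomostat 007 and 002. The part of this muscle RNA in the results was not tested. In such bulk tumour RNA, fewer cells of a type and less RNA per cell cannot be told apart.

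SCD, the desaturase gene, fell to 41.7% of its vehicle level under evexomostat, and it was the 1 gene of the 10 that passed an adjusted p of 0.05 in edgeR's quasi-likelihood test, where 0.432% of all tested genes passed with a fall and 0.606% in either direction. No gene of the 10 passed with a rise (0.174% of all tested genes). The fitted log2 fold change was below 0 for 9 of the 10, against 55.4% of all tested genes, with a median of -0.49 over the 10 and -0.04 over all tested genes. An unadjusted p under 0.05 with a lower level was found for 6 (SCD, ACSS2, ELOVL5, FADS1, FADS2 and SREBF1), against 8.55% of tested genes. With all 11 tumours the 2 groups overlapped in each of the 10 genes, while 1.64% of tested genes were lower in every evexomostat tumour than in every vehicle tumour and 1.33% were higher. DESeq2 called SCD and FADS2, where it called 2.70% of tested genes lower, and limma-voom with quality weights called 6 of the 10, where it called 4.05%. Plain limma-voom, limma-trend on RPM with either pseudocount, and edgeR with either of the other scalings called 0 of the 10. These fits called only 0.408% to 0.582% of all tested genes in either direction.

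**Figure D1:**
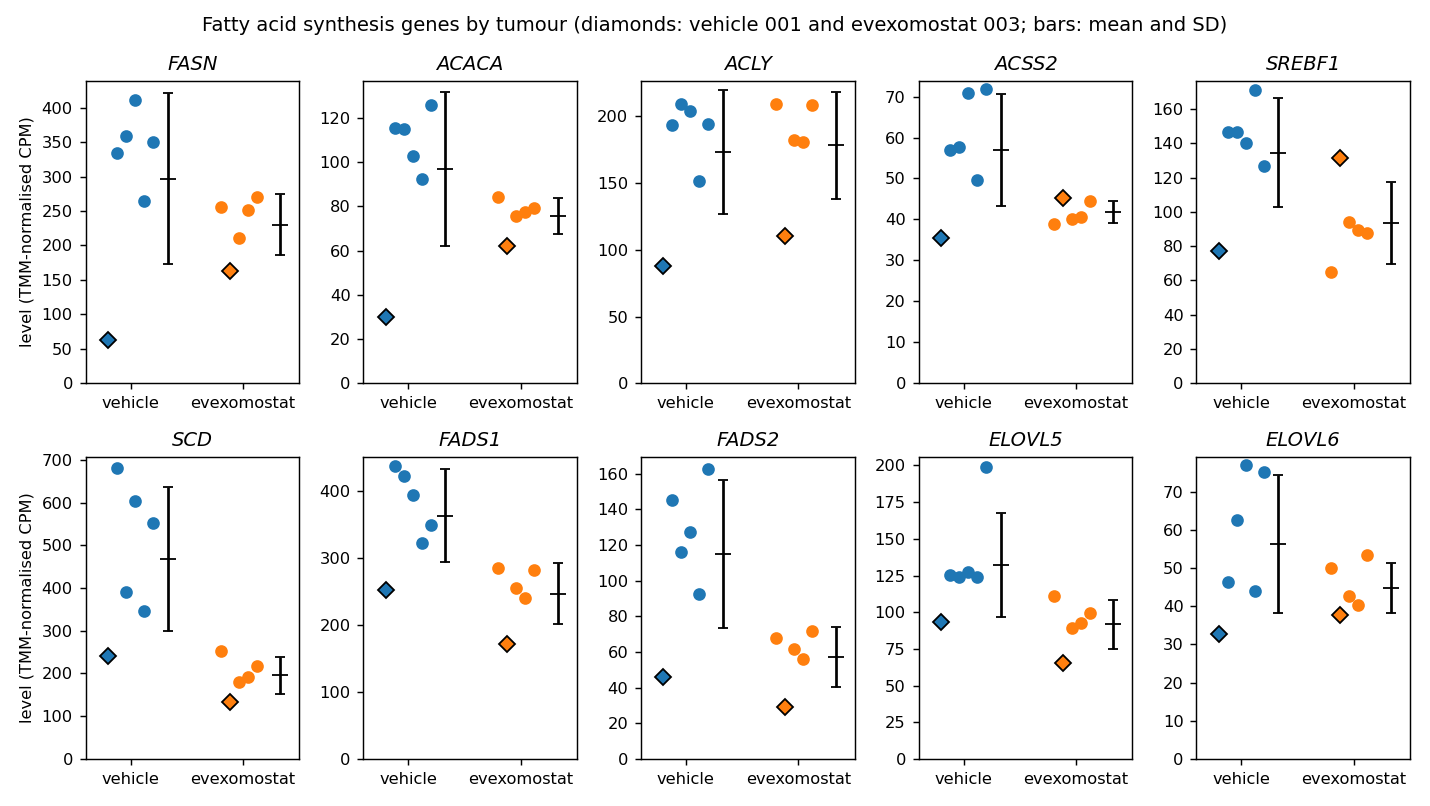
Level of each gene by tumour in TMM-normalised CPM (y axis, each from 0) for 6 vehicle and 5 evexomostat tumours, with the mean and SD as bars; diamonds mark vehicle 001 and evexomostat 003. Vehicle 001 is the lowest vehicle point in all 10 panels, and the other 5 vehicle points lie above all evexomostat points in SCD, FADS1, FADS2, ELOVL5, ACACA and ACSS2.

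Without vehicle 001, 6 of the 10 genes passed with a fall (SCD, ACACA, ACSS2, FADS1, FADS2 and SREBF1), where 3.24% of all 16565 genes then tested did. The median log2 fold change of the 10 was -0.59, and all 10 were below 0. As vehicle 001 was the lowest vehicle library in all 10, leaving it out raised each of their vehicle means. The groups then did not overlap in 6 genes (SCD, ACACA, ACSS2, ELOVL5, FADS1 and FADS2), against 4.21% of tested genes. When evexomostat 003 was left out as well, a choice made after the data were seen, the same 6 genes passed and the median was -0.53. In that fit 428 of all 16737 tested genes passed with a fall, and 3.9% passed in either direction.

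SCD encodes stearoyl-CoA desaturase, which makes oleate and palmitoleate. Its vehicle levels were 240.8 at the lowest, 471.1 at the median and 679.8 CPM at the highest, and its evexomostat levels were 253.6, 134.2, 180.1, 192.4 and 216.6 CPM in replicates 002, 003, 004, 005 and 007. The 5 vehicle tumours other than 001 were at 346.9 CPM or more, above every evexomostat tumour, while vehicle 001 lay between evexomostat 007 and 002. The means were 468.7 ± 168.7 CPM (SD, n = 6) and 195.4 ± 44.2 (SD, n = 5). The log2 fold change was -1.26 (SE 0.26, adjusted p = 0.0494 in edgeR) and close to the threshold. With relative log expression scaling in place of TMM the adjusted p was 0.0505, and with upper quartile scaling it was 0.0527. For SCD, limma-voom gave an adjusted p of 0.0599, and limma-trend on RPM gave 0.102 and 0.108 with the larger and smaller pseudocount. Without vehicle 001 it was -1.39 (SE 0.21, adjusted p = 0.00873 in edgeR). Leaving out any other library took the adjusted p to between 0.0529 and 0.147, with log2 fold changes of -1.37 to -1.13. In the authors' deposited table SCD is at -1.19 with an adjusted p of 0.00179, the 1 gene of the 10 called there, where 0.536% of all genes are called lower. That table covers all 28152 symbols, where 16653 were tested here, and gives group means in RPM without TMM scaling. Its adjusted p is thus not on a like footing with those above.

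FADS2 encodes the desaturase that opens the polyunsaturated pathway. It was at 45.7, 121.6 and 162.8 CPM as the lowest, median and highest vehicle values. In evexomostat replicates 002, 003, 004, 005 and 007 it was at 67.6, 28.8, 61.4, 56.2 and 71.5 CPM. Vehicle 001 was again inside the evexomostat range and the other vehicle tumours, at 92.4 CPM or more, were above it. The treated mean stood at a log2 value of -1.01 against vehicle (SE 0.30, adjusted p = 0.153 in edgeR), or 49.7% of the vehicle level, and without vehicle 001 it was -1.17 (SE 0.22, adjusted p = 0.0171 in edgeR). The authors' deposited table, with its unfiltered gene set, gives -0.94 with an adjusted p of 0.0834.

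FADS1 is the desaturase that completes arachidonate and eicosapentaenoate. Its vehicle values were 251.9, 371.8 and 438.1 CPM (lowest, median and highest). Its evexomostat values were 284.6, 172.4, 255.0, 240.9 and 281.6 CPM in the same order of replicates. Only vehicle 001 overlapped with treated tumours. Its fitted log2 fold change was -0.56 (SE 0.18, adjusted p = 0.180 in edgeR) with all tumours and -0.64 (SE 0.14, adjusted p = 0.0312 in edgeR) without vehicle 001.

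Of the elongases, ELOVL5, which lengthens the polyunsaturated acids between both FADS steps, had vehicle values of 93.5, 124.7 and 199.3 CPM. Its evexomostat values were 111.1, 65.6, 89.3, 92.9 and 99.4 CPM, of which 3 were below every vehicle tumour. Vehicle 007 stood above the rest of its group, which otherwise reached 127.2 CPM. The log2 fold change of ELOVL5 was -0.53 (SE 0.19, adjusted p = 0.232 in edgeR), and -0.60 (adjusted p = 0.0550 in edgeR) without vehicle 001. ELOVL6, which turns palmitate into stearate, was at 32.7, 54.6 and 77.0 CPM under vehicle and at 50.0, 37.8, 42.6, 40.4 and 53.5 CPM under evexomostat. Its groups overlapped with and without vehicle 001, at a log2 fold change of -0.33 (SE 0.21, adjusted p = 0.556 in edgeR) and -0.44 (adjusted p = 0.143 in edgeR). ELOVL6 was at -0.22 without vehicle 005.

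Of the enzymes of the synthesis itself, FASN, the synthase, had vehicle values of 63.2, 341.7 and 411.5 CPM and evexomostat values of 256.0, 162.5, 210.8, 251.9 and 270.4 CPM. Vehicle 001 was lower than every evexomostat tumour and vehicle 006, at 264.0 CPM, was below evexomostat 007. For FASN the fitted log2 value was -0.37 (SE 0.35, adjusted p = 0.719 in edgeR), and -0.57 (SE 0.15, adjusted p = 0.0516 in edgeR) without vehicle 001. FASN had a vehicle SD of 41.8% of its mean.

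ACACA, the carboxylase that commits acetyl-CoA to synthesis, was at 30.0, 108.9 and 126.0 CPM under vehicle. Under evexomostat it was at 84.4, 62.2, 75.6, 77.4 and 79.2 CPM. All vehicle tumours but 001 were above all evexomostat tumours, and vehicle 001 was below them all. With all tumours the log2 fold change was -0.36 (SE 0.27, adjusted p = 0.642 in edgeR), and without vehicle 001 it was -0.54 (SE 0.11, adjusted p = 0.0220 in edgeR).

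Of the acetyl-CoA suppliers, ACSS2, the acetate enzyme, was at 35.3, 57.2 and 72.0 CPM under vehicle and 38.9, 45.2, 40.1, 40.6 and 44.4 CPM under evexomostat. Its treated tumours lay close together, with an SD of 6.64% of their mean against 24.0% under vehicle. ACSS2 had a log2 fold change of -0.45 (SE 0.17, adjusted p = 0.257 in edgeR), and -0.55 (adjusted p = 0.0233 in edgeR) without vehicle 001. ACLY, the citrate enzyme, was at 87.8, 194.0 and 209.1 CPM under vehicle and at 209.3, 110.6, 182.6, 180.8 and 208.4 CPM under evexomostat. The lowest value of each group was in vehicle 001 and evexomostat 003, and the remaining tumours were at 151.7 to 209.1 and 180.8 to 209.3 CPM. ACLY had a log2 fold change of 0.04 (SE 0.22, adjusted p = 0.966 in edgeR), and -0.09 (SE 0.16, adjusted p = 0.773 in edgeR) without vehicle 001, and it was also below 0 without evexomostat 002 or evexomostat 007.

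SREBF1, the regulator, was at 77.1, 143.3 and 171.1 CPM under vehicle. Its evexomostat values were 65.0, 131.3, 93.9, 89.7 and 87.9 CPM, the highest in evexomostat 003, the tumour that was lowest in its group for 8 of the other genes. The log2 fold change was -0.53 (SE 0.21, adjusted p = 0.286 in edgeR), and -0.64 (SE 0.16, adjusted p = 0.0403 in edgeR) without vehicle 001, where evexomostat 003 still overlapped with vehicle 007. Its transcript level is not the level of cut, active SREBP1, which was not measured.

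**Figure D2:**
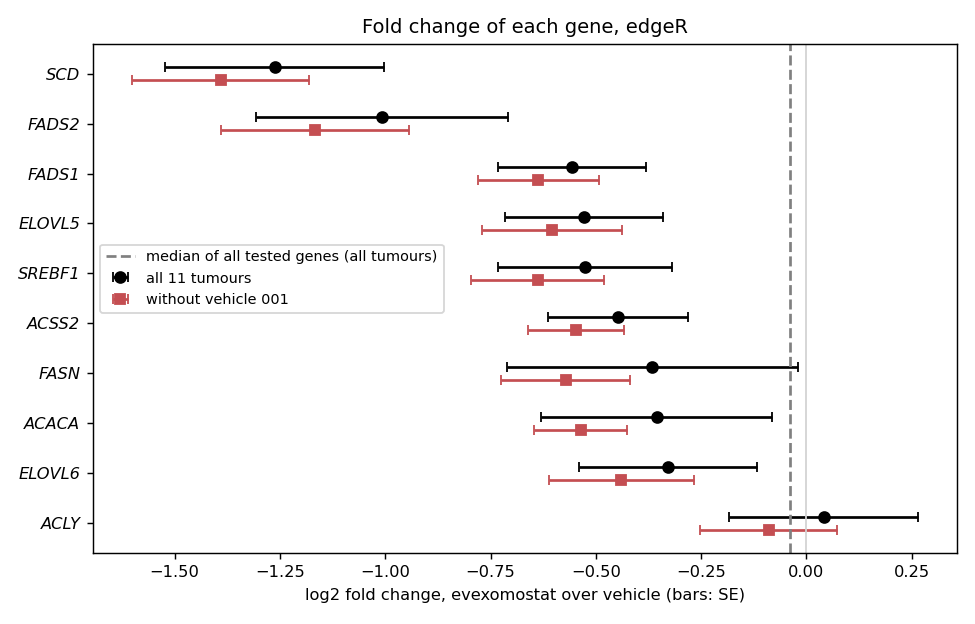
Log2 fold change of evexomostat over vehicle (x axis) for each gene in edgeR's fit, with SE as bars, for all 11 tumours (black circles) and without vehicle 001 (red squares). SCD and FADS2 lie farthest to the left at -1.26 and -1.01, ACLY sits at 0.04, and the dashed line is the median of all tested genes at -0.04.

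Some exons of these genes are shared with neighbours in GENCODE release 29, and the use of strand in counting is not given in the sources used here. FADS1 and FADS2 overlap each other on opposite strands over 490 bases, 4.79% of the exon bases of FADS1. SREBF1 overlaps RAI1 over 556 bases, 6.92% of its exon bases. Reads of these stretches, and reads of similar mouse transcripts or of a processed pseudogene of SCD, could be counted with another gene or dropped.

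Per kilobase of exon, the vehicle level of SCD was the highest, at 87.4 ± 31.5 CPM per kilobase (SD, n = 6). FADS1 (35.5 ± 6.81), ELOVL5 (34.7 ± 9.24), ACLY (33.2 ± 8.92) and FASN (31.7 ± 13.2) followed. Then came SREBF1 (16.8 ± 3.95), ACSS2 (10.6 ± 2.54), FADS2 (10.4 ± 3.78), ELOVL6 (7.72 ± 2.48) and ACACA (7.45 ± 2.67). SCD was above FADS1 by more than both SDs, while from FADS1 downward the SD ranges of all neighbours in this order overlapped. These levels use all annotated exons of a gene in GENCODE release 29, which may be longer than the transcripts present.

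SCD was also set beside its companions within each tumour, as the log2 ratio of its CPM to that of each other gene. This ratio does not depend on library scaling. SCD was picked for this after its values were seen, and it had the largest fall of these genes. Its ratios therefore lean towards a fall by that choice, and the p-values are not independent of it. All 9 ratios also share the same SCD values, so they are not separate observations. The ratio to FASN was 0.12, 0.60 and 1.93 under vehicle (lowest, median and highest) and -0.01, -0.28, -0.23, -0.39 and -0.32 in the evexomostat replicates. Every vehicle ratio was above every evexomostat ratio. These CPM are not corrected for gene length, so the sign of a ratio does not say which gene was more abundant. The mean difference was -1.03 (exact permutation p = 0.00433, two-sided, adjusted p = 0.00649 over 9 ratios). Against ACLY the vehicle ratio was 1.41 ± 0.32 (SD, n = 6) and the evexomostat ratio 0.14 ± 0.14 (SD, n = 5), a difference of -1.27 (exact permutation p = 0.00216, the smallest that 462 splits can give, adjusted p = 0.00649).

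In 7 of the 9 ratios the groups did not overlap, those to FASN, ACACA, ACLY, ACSS2, ELOVL5, ELOVL6 and FADS1, with differences of -1.27 to -0.65. The ratio of SCD to any other tested gene gave groups that did not overlap in the same direction for 33.0% of 16534 genes. The ratio to FADS2 did overlap, with a difference of -0.24 (exact permutation p = 0.184, adjusted p = 0.184), as did that to SREBF1, at -0.69 (exact permutation p = 0.0779, adjusted p = 0.0877). Without vehicle 001 the differences were -0.80 for FASN and -1.26 for ACLY (exact permutation p = 0.00794 for each), and -0.17 for FADS2 (exact permutation p = 0.302). The value 0.00794 is the smallest that splits of the remaining tumours can give, and all 7 ratios named above had it.

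**Figure D3:**
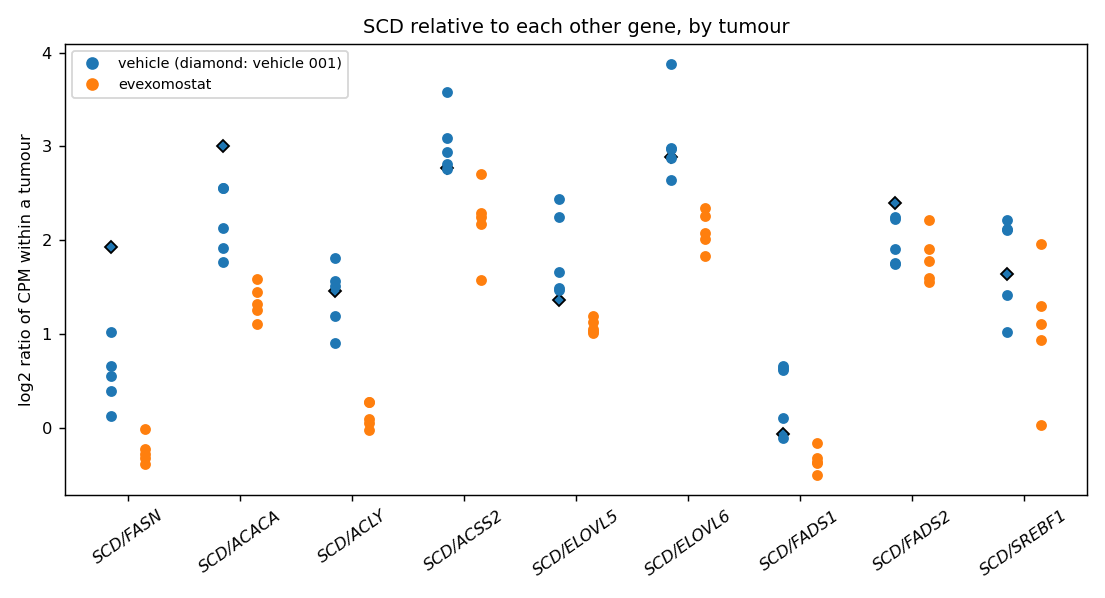
Log2 ratio of SCD to each of the 9 other genes within a tumour (y axis), vehicle in blue and evexomostat in orange, with vehicle 001 as a diamond. The groups are apart in 7 of the 9 columns and overlap for FADS2 and SREBF1.

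Around these genes, 154 others of lipid metabolism were read from 10 lists. The lists were chosen with earlier results of these data known, so their shares beside those of all tested genes are description only. Of the 145 tested, 1 passed with a fall, STARD4, and 0 with a rise at edgeR adjusted p under 0.05. At an unadjusted p under 0.05 there were 35 lower and 1 higher, where 8.55% of all tested genes were lower and 4.82% higher. The fitted value was below 0 for 108 of 145 genes (74.5%, against 55.4% of all tested genes), with a median of -0.19. The groups did not overlap in 7 genes, all lower under evexomostat, 4.83% against 1.64% of all tested genes. Besides STARD4 these were HSD17B12 and HACD4 of the elongation cycle, the ceramide desaturase gene DEGS1, CYB5R2, ACSL3 and DBI, which were named after their values were seen.

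The regulators of SREBP and lipogenesis gave 0 of 17 tested genes past the threshold, with 14 below 0 and a median of -0.23. SREBF2, the sterol counterpart of SREBF1, was at 193.8 CPM under vehicle and 145.2 under evexomostat (log2 fold change -0.42, SE 0.24, adjusted p = 0.485 in edgeR). RXRA, the partner of lipid-sensing nuclear receptors, had a log2 fold change of -0.38 (adjusted p = 0.496 in edgeR). Without vehicle 001, 3 of the 17 passed with a fall, SREBF2, RXRA and PPARGC1B. Of all genes then tested 3.24% passed with a fall, which is also the background for the falls without vehicle 001 in the lists that follow.

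Among suppliers of acetyl-CoA and NADPH, 0 of 13 passed and 9 were below 0, with a median of -0.38. TKT of the pentose phosphate pathway was at 785.7 against 490.7 CPM (log2 fold change -0.68, SE 0.25, adjusted p = 0.251 in edgeR), and MDH1 at 377.2 against 288.9 CPM (-0.38, adjusted p = 0.510 in edgeR). MDH1 was at -0.10 without vehicle 001, and TKT at -0.43 without vehicle 005. Without vehicle 001, PGD and AACS passed with a fall.

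The other enzymes of the elongation cycle were split, with 5 of 10 below 0, a median of -0.06 and 0 past the threshold. The most abundant, HACD3 and TECR, had log2 fold changes of -0.16 and 0.01. Without vehicle 001, ELOVL7 and HSD17B12 passed with a fall. Of the other desaturases and their electron carriers, 8 of 10 were below 0 and 0 passed, with DEGS1 at -0.44 (adjusted p = 0.180 in edgeR) and FADS3, a neighbour of FADS1 and FADS2, at 0.10 (adjusted p = 0.832 in edgeR). CYB5R2 passed with a fall without vehicle 001.

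Mitochondrial fatty acid synthesis, a separate pathway that serves lipoate, had 3 of 9 genes below 0 and a median of 0.04, with 0 past the threshold with or without vehicle 001. NDUFAB1 was at -0.36 with all tumours and at 0.19 without vehicle 001, and MECR was at 0.22 with all tumours. For fatty acid activation, 10 of 11 were below 0 with a median of -0.26, and 0 passed. DBI, the acyl-CoA binding protein, was at 207.1 against 132.7 CPM (log2 fold change -0.64, adjusted p = 0.216 in edgeR) and ACOT7 at -0.19. DBI was at -0.39 without vehicle 001. ACSL1 and ACSL3, which attach CoA to long fatty acids, passed with a fall without vehicle 001.

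Uptake and binding genes gave 8 of 13 below 0, a median of -0.05 and 0 past the threshold, with CAV1 at -0.04 and SLC27A4 at 0.15. FABP5 passed with a rise without vehicle 001, as did 1.98% of all genes then tested. Glycerolipid and lipid droplet genes gave 11 of 16 below 0, a median of -0.17 and 0 past the threshold, with PLIN2 at -1.31 (SE 0.48, adjusted p = 0.250 in edgeR) and PLIN3 at -0.24. PLIN2 was at -0.83 without vehicle 007. Without vehicle 001, AGPAT4 and HILPDA passed with a fall. Fatty acid oxidation gave 19 of 24 below 0, a median of -0.18 and 0 past the threshold, with its most abundant genes ACADVL at 0.04 and HADHA at -0.16. PPARA passed with a fall without vehicle 001.

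Cholesterol synthesis and uptake, the pathway driven mainly by SREBF2, was the list whose median was nearest to that of the fatty acid genes, at -0.42, with 21 of 22 tested genes below 0. STARD4, a carrier of sterols, was the 1 gene that passed, with a vehicle mean of 42.5 ± 6.40 CPM (SD, n = 6) and an evexomostat mean of 19.9 ± 2.18 CPM (SD, n = 5). The fitted log2 value was -1.09 (SE 0.14, adjusted p = 0.0138 in edgeR). STARD4 no longer passed without evexomostat 002 (adjusted p = 0.0525 in edgeR) or without evexomostat 005 (adjusted p = 0.0558 in edgeR), at log2 values of -1.07 and -1.05. Its groups did not overlap, with vehicle 001 at 32.7 CPM, above the highest treated tumour at 22.3 CPM. FDFT1, which makes squalene, had a log2 fold change of -0.26 (adjusted p = 0.709 in edgeR).

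**Figure D4:**
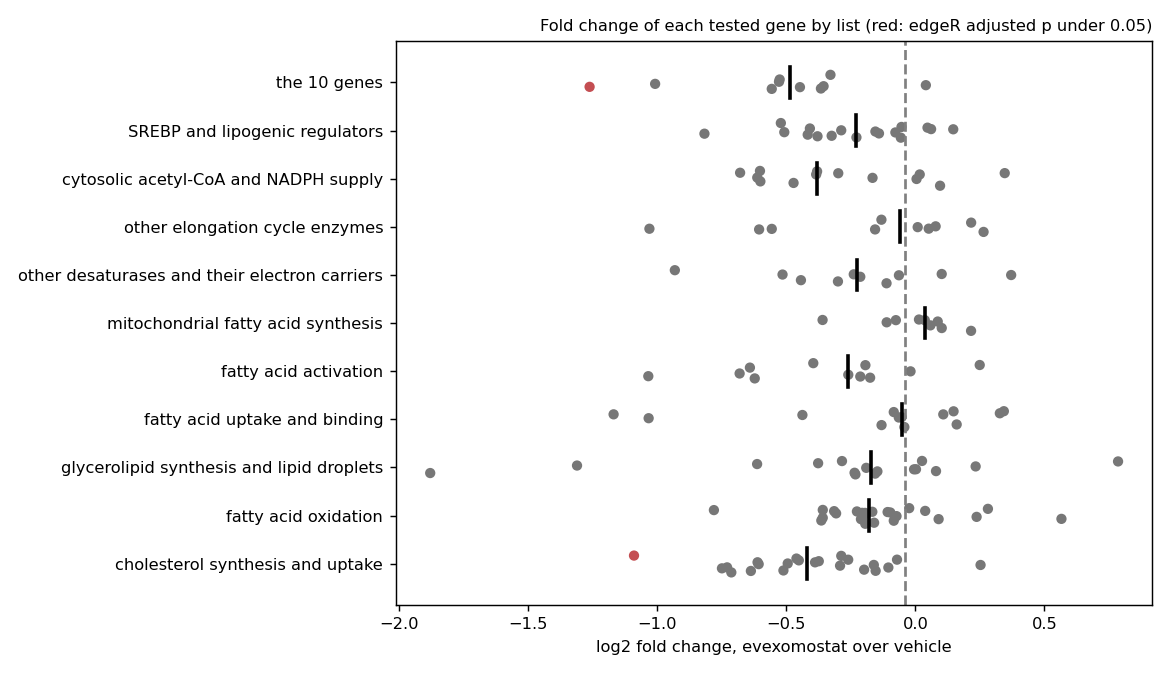
Log2 fold change of evexomostat over vehicle (x axis) for each tested gene of the 10 fatty acid genes and the 10 other lipid lists, with black bars for list medians and a dashed line for the median of all tested genes. Red points, SCD and STARD4, passed the threshold, and list medians run from -0.49 for the fatty acid genes to 0.04 for mitochondrial synthesis.

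Among the other 16643 tested genes, the 5 whose pattern over the 11 libraries was most like the mean standardised log2 CPM of the 10 were ALDOA, SELENOI, PPARGC1B, TMEM184C and C1orf198. Their Pearson correlations were 0.973, 0.972, 0.971, 0.967 and 0.964, as a description of likeness over libraries that include both groups and vehicle 001. PPARGC1B, a coactivator of SREBP, had a vehicle mean of 59.4 ± 15.6 CPM (SD, n = 6) and an evexomostat mean of 41.8 ± 4.91 CPM (SD, n = 5) (log2 fold change -0.51, adjusted p = 0.262 in edgeR).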

How the data were processed

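Total RNA of 11 xenografts, 1 library each, was sequenced as paired reads. The authors deposited raw counts per gene symbol, the same values as RPM (each count scaled by its library's total), and their own table with a log2 fold change, mean levels and p-values, per the file headers. The submitters' processing notes name bcl2fastq 2.17, STAR 2.7.5c, featureCounts, Subread and edgeR with GRCh37, without settings. The annotation, the strand setting and the treatment of mouse reads are not given in the sources used here, so host reads could add to human symbols.

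The deposited counts were filtered (filterByExpr, at least 10 counts, total 15), scaled by TMM and tested over all genes with edgeR 4.0.16 in R 4.3.3 by the quasi-likelihood test, with Benjamini-Hochberg adjustment and a threshold of 0.05. CPM values are TMM-normalised, and exon lengths are from GENCODE release 29. Alternatives were other scalings and filters, DESeq2 1.42.0, limma 3.58.1 on counts and on log2(RPM + 1) or log2(RPM + 0.1), a replicate block and leaving out each library. The count test was tested on simulated data. Named were the 10 genes, list genes that passed, the 2 most abundant genes of each list and the 5 genes most alike. A list gene that this rule names is not reported here. The genes and lists were chosen with earlier results of these data known. Protein sequences were not used here.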

Additional observations from a re-analysis of the deposited data

Results flagged for a closer look

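For each of the 10 genes and both groups, 20 sets of values in all, the highest and lowest tumour were compared with the rest by Dixon's ratio, which chance alone exceeds in about 1 of 20 sets. It was exceeded in 3. ACACA was at 30.01 CPM in vehicle 001, and the next vehicle tumour was at 92.2 CPM. ACLY was at 110.6 CPM in evexomostat 003, and the next evexomostat tumour was at 180.7 CPM. ELOVL5 was at 199.3 CPM in vehicle 007, and the next vehicle tumour was at 127.2 CPM.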

How the results depend on the processing

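The median of the 10 fatty acid genes stayed below 0 under every alternative run, at -0.69 to -0.36. SCD stayed below 0 in all 23 alternatives (-1.63 to -1.11) and passed in 8 of them. The number of the 10 genes past the threshold, 1 with all tumours and edgeR, was 0 with relative log expression scaling, upper quartile scaling, limma-voom and limma-trend on log2(RPM + 1) or log2(RPM + 0.1), 2 with DESeq2 and 6 with quality weights. It ran from 0 to 6 when 1 library was left out, with 6 only without vehicle 001, and was 6 without both vehicle 001 and evexomostat 003, an alternative chosen after seeing the data. Of the other lipid genes, 1 fell and 0 rose. DESeq2 gave 10 lower, quality weights 18 lower and 1 higher, leaving out 1 library 0 to 15 lower and 0 to 1 higher, and leaving out both libraries 10 lower and 1 higher. No listed gene passed without evexomostat 002 or without evexomostat 005.

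Over all tested genes, 72 fell and 29 rose. The numbers were 42 lower with upper quartile scaling, 31 and 30 lower with limma-trend at the larger and smaller pseudocount, 449 lower and 200 higher with DESeq2, 675 and 384 with quality weights, and 428 and 224 without both libraries. Leaving out 1 library gave 0 to 537 lower and 1 to 328 higher. The share of calls that were higher was 28.7% with all tumours, 40% with upper quartile scaling and 58.1% and 55.9% with limma-trend. The median of all genes was -0.04 in the main scaling and 0.08 and 0.10 with limma-trend on RPM. The causes of these differences were not tested.

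Replicate numbers are shared by 8 libraries, but same-numbered tumours did not deviate together (correlations -0.27, 0.07, 0.05 and -0.10), so the numbers were not taken to pair them. With a replicate block on these 8, 1 of the 10 genes passed, 4 other lipid genes were lower and 107 genes passed in all. The same 8 without the block gave 6 of the 10 genes, 20 lipid genes lower, and 508 genes lower and 225 higher in all. These 8 lack vehicle 001, as well as vehicle 006 and evexomostat 002.

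Direction turned, with 0 turned values past the threshold, for 7 genes. ACLY was at -0.000457 with quality weights, -0.27 with the block, -0.24 on the same libraries without it, and -0.0900 to 0.17 with 1 library left out. TECR was at -0.0723, -0.13 and -0.13 in those settings, -0.11 without both libraries and -0.0891 to 0.0614 with 1 left out. NDUFAB1 was at 0.19, 0.17, 0.18, 0.20 and -0.47 to 0.19. FADS3 was at -0.0454 with quality weights and -0.0795 without both libraries. CAV1 was at 0.12 with quality weights, 0.0528 and 0.0530 with limma-trend at the larger and smaller pseudocount, 0.17 without both libraries and -0.17 to 0.11 with 1 left out. ACADVL was at -0.0670 with quality weights, -0.18 without both libraries and -0.0905 to 0.13 with 1 left out. SLC27A4 stood at -0.0407 in the fit with the block and at -0.0562 in the fit lacking it.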

Other observations

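PLIN2 and HILPDA spread widely between vehicle tumours. PLIN2, which coats droplets, was at 127.7 CPM in vehicle 006 and 1014 CPM in vehicle 007, and at 119.8 to 232.6 CPM under evexomostat. HILPDA, an inhibitor of droplet lipolysis that is also induced by low oxygen, was at 16.1 CPM in vehicle 006 and 162.0 in vehicle 007, and at 13.5 to 18.7 CPM under evexomostat (log2 fold change -1.88, SE 0.49, adjusted p = 0.105 in edgeR). The groups overlapped in both genes through vehicle 006, and in PLIN2 also through vehicle 001. Both genes were picked after their values were seen.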
